A study of Saccharomyces cerevisiae with 21 samples.

Results

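The genes described here are the 5 named genes for breaking down aromatic amino acids in Saccharomyces cerevisiae: ARO9 (YHR137W), ARO10 (YDR380W), ARO8 (YGL202W), PDC5 (YLR134W) and ARO80 (YDR421W). They were matched by symbol to the probes of both array types, and each had 1 probe on each type. All 5 had a value on all 12 arrays, out of 5379 named genes on the first array type and 5365 on the second. Because they were chosen with their ratios on these arrays already known, those ratios are described here without a test.

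Yeast takes the amino group from phenylalanine, tyrosine or tryptophan, removes carbon dioxide from the resulting keto acid and turns the aldehyde into a fusel alcohol or acid. This route, the Ehrlich pathway, lets the cell use aromatic amino acids as nitrogen sources and gives aroma compounds such as phenylethanol. Its first steps are set mainly by Aro80, a zinc cluster activator that responds to aromatic amino acids, and the GATA factors that respond to nitrogen supply act on the same promoters.

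Strain S288C was irradiated cold in saline (5 ml for carbon ions, 2 ml for the others) and then returned to 50 ml of fresh rich medium (YPD) for 40 min at 25 C before poly(A) RNA was taken. The irradiated groups received thermal neutrons (20.8 Gy over 20 h), carbon ions of 290 MeV per nucleon (25 Gy over 10 min), gamma rays from caesium-137 (17 Gy, with an exposure of 20.5 h) or fast neutrons (20.3 Gy, 19 h). Each group had 3 two-colour arrays, and on each array the irradiated RNA (Cy5) was set against RNA of an unirradiated culture (Cy3) held cold for the same time. Every value below is a log2 ratio of irradiated over control, so 1 is a 2-fold higher and -1 a 2-fold lower transcript level. Thermal neutrons, carbon ions and gamma rays share 1 array type and 1 table of 9 arrays. Fast neutrons have their own type and table, normalised apart, and are set beside the others without a test.

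Several limits of the groups come from the labels. The saline volume, dose and exposure time of the carbon ion group differ from those of the others, so they cannot be told apart from the radiation. Irradiated cells of both neutron groups were in cuvettes while their controls were in tissue culture flasks, so vessel and radiation cannot be told apart in those ratios. For the thermal neutron group the whole field gave 17 mGy/min, of which thermal neutrons made up 1.0 to 2.0. The gamma dose rate is given as 1.4 Gy/min and the fast neutron irradiation also as 336 min, neither of which matches the exposure times above. The dyes were never swapped, so a dye effect common to all arrays of a table cannot be told apart from a shared change. Ratios hold no transcript level, and no check of the cells against marker genes was made. Across genes, arrays of the same radiation correlated with r from 0.736 to 0.861 for thermal neutrons, 0.437 to 0.714 for carbon ions, 0.731 to 0.835 for gamma rays and 0.431 to 0.685 for fast neutrons. The high-power scan of fast neutron replicate 2 had a median log2 ratio of 0.134 over all probes, the farthest from 0 among the 21 columns of values. RNA came from whole cultures, so a change in fewer cells and a smaller change in all cells cannot be told apart.

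ARO9, ARO10, PDC5 and ARO80 lay above control on all 3 thermal neutron arrays, while ARO8 lay below control on all 3. ARO9 and ARO10 were far above control there and below control after gamma rays. PDC5 had means between 0.58 and 0.71 after thermal neutrons, carbon ions and gamma rays, and ARO8 and ARO80 stayed within 2-fold of control in every mean.

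At least 2-fold higher with the same sign on 3 arrays held for 2 of the 5 genes after thermal neutrons, beside 4.02% of all genes, and at least 2-fold lower for 0 of the 5, beside 2.24%. After carbon ions the counts were 0 higher and 0 lower, beside 1.71% and 0.687% of all genes. After gamma rays they were 0 higher and 1 lower (ARO9), beside 4.07% and 2.99%. After fast neutrons they were 0 higher and 1 lower (ARO10), beside 0.790% and 1.68%. The same sign on 3 arrays at any size held for 4 genes higher and 1 lower after thermal neutrons, beside 32.1% and 36.7% of all genes. It held for 1 higher and 2 lower after carbon ions (25.4% and 31.5%), 2 higher and 2 lower after gamma rays (28.9% and 35.4%), and 0 higher and 3 lower after fast neutrons (28.0% and 27.3%). These shares are a description, since the genes were chosen on the same ratios.

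**Figure D1:**
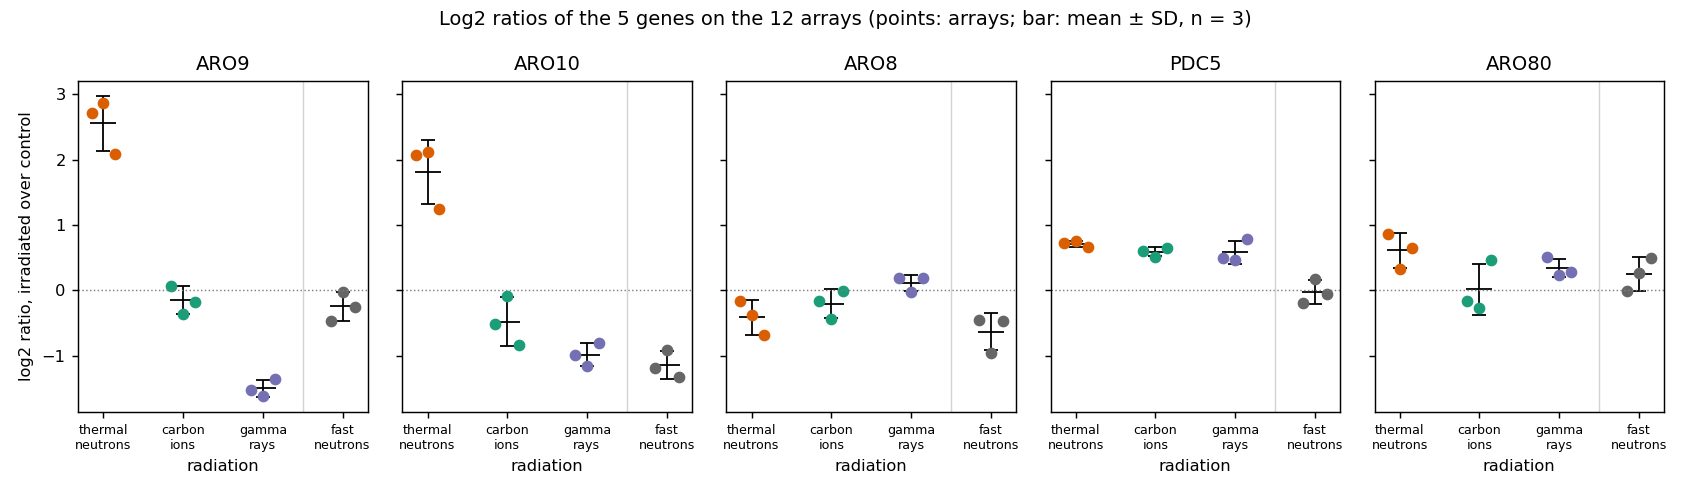
Log2 ratio of irradiated over control (vertical axis) of each of the 5 genes on the 3 arrays of each radiation (horizontal axis); points are arrays and bars the mean ± SD (n = 3). ARO9 lies between 2.08 and 2.87 on the thermal neutron arrays and between -1.61 and -1.36 on the gamma ray arrays, and PDC5 lies between 0.47 and 0.79 on the 9 arrays left of the vertical line, which separates the fast neutron table.

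ARO9 encodes aromatic aminotransferase II, which takes the amino group off aromatic amino acids and is the form made when they are broken down. Its log2 ratio was 2.72, 2.87 and 2.08 on the thermal neutron arrays, a mean of 2.55 ± 0.42 (SD, n = 3) or 5.87-fold. That mean ranked 9 among 5301 genes counted from the highest. After carbon ions ARO9 was at 0.07, -0.36 and -0.17, arrays on both sides of control, with a mean of -0.15 ± 0.22 (SD, n = 3). After gamma rays it was at -1.52, -1.61 and -1.36, a mean of -1.50 ± 0.13 (SD, n = 3) or 2.82-fold lower, and ranked 21 from the lowest of 4891 genes. The arrays of ARO9 thus did not overlap between any 2 of the 3 radiations of the first table. Without overlap were 53.0% of all genes between thermal neutrons and gamma rays and 32.7% between thermal neutrons and carbon ions. Between carbon ions and gamma rays the share was 39.1%. The share of genes without overlap in all 3 pairs was not counted. After fast neutrons ARO9 was at -0.47, -0.02 and -0.25, a mean of -0.25 ± 0.22 (SD, n = 3), with 1 array next to control level.

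ARO10 encodes phenylpyruvate decarboxylase, the enzyme of the second step, which turns the keto acid into an aldehyde. Its log2 ratio was 2.06, 2.11 and 1.24 on the thermal neutron arrays, a mean of 1.81 ± 0.49 (SD, n = 3) or 3.50-fold, and ranked 29 among 5301 genes from the highest. After carbon ions ARO10 was at -0.52, -0.08 and -0.84, a mean of -0.48 ± 0.38 (SD, n = 3). After gamma rays it was at -0.99, -1.16 and -0.81, a mean of -0.99 ± 0.17 (SD, n = 3) or 1.98-fold lower. The carbon ion and gamma ray arrays of ARO10 overlapped, unlike those of ARO9. After fast neutrons ARO10 was at -1.20, -0.91 and -1.33, a mean of -1.14 ± 0.22 (SD, n = 3) or 2.21-fold lower, and ranked 45 from the lowest of 4936 genes. ARO10 was therefore below control on all 9 arrays outside the thermal neutron group, while ARO9 was within 0.5 of control on the carbon ion and fast neutron arrays.

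ARO8 encodes aromatic aminotransferase I, which carries out the same reaction as Aro9 and also makes phenylalanine and tyrosine in the synthetic direction. Its log2 ratio was -0.16, -0.38 and -0.69 after thermal neutrons (mean -0.41 ± 0.26), so it lay on the other side of control from ARO9 on each of those arrays. It was at -0.16, -0.45 and -0.01 after carbon ions (mean -0.20 ± 0.22) and at 0.19, -0.03 and 0.18 after gamma rays (mean 0.12 ± 0.12). After fast neutrons it was at -0.46, -0.96 and -0.47 (mean -0.63 ± 0.29, SD, n = 3), the lowest of its 4 means. The ranges after thermal neutrons and carbon ions overlapped, and so did those after carbon ions and gamma rays.

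PDC5 encodes a minor pyruvate decarboxylase, which also acts on the keto acids of aromatic amino acids. Its log2 ratio was 0.73, 0.75 and 0.66 after thermal neutrons (mean 0.71 ± 0.05), 0.60, 0.51 and 0.65 after carbon ions (mean 0.59 ± 0.07) and 0.50, 0.47 and 0.79 after gamma rays (mean 0.58 ± 0.18). All 9 arrays of the first table were above control at similar values, and the largest difference between 2 of these means was 0.13. With dyes never swapped, a dye effect common to these 9 arrays cannot be told apart from a shared change of PDC5. After fast neutrons PDC5 was at -0.20, 0.17 and -0.05 (mean -0.03 ± 0.18, SD, n = 3), on both sides of control. PDC1, the main pyruvate decarboxylase and a close copy of PDC5, was at 0.21 ± 0.26, 0.22 ± 0.13 and 0.29 ± 0.12 after thermal neutrons, carbon ions and gamma rays and at -0.51 ± 0.01 after fast neutrons (SD, n = 3), and passed the test in none of them. How much PDC1 transcript bound to the PDC5 probe was not tested.

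ARO80 encodes the activator of ARO9 and ARO10. Its log2 ratio was 0.87, 0.33 and 0.65 after thermal neutrons (mean 0.61 ± 0.27), above control on all 3 arrays. It was at -0.16, -0.26 and 0.46 after carbon ions (mean 0.01 ± 0.39), where only the high-power scans held a value. After gamma rays it was at 0.50, 0.24 and 0.28 (mean 0.34 ± 0.14), so ARO80 was above control on the arrays where ARO9 and ARO10 were lowest or among their lowest. After fast neutrons it was at -0.01, 0.26 and 0.50 (mean 0.25 ± 0.25, SD, n = 3). Its thermal neutron and gamma ray arrays overlapped.

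Between thermal neutrons and gamma rays, the mean of ARO9 differed by 4.05 and that of ARO10 by 2.79, a 16.6-fold and a 6.92-fold gap. These differences ranked 4 and 12 from the highest of 4843 genes. The arrays of thermal neutrons and gamma rays did not overlap for ARO8, ARO9 and ARO10, 3 of the 5 genes, beside 53.0% of all genes. Between thermal neutrons and carbon ions the differences were 2.71 for ARO9 and 2.29 for ARO10, ranks 5 and 7 of 5033. There 3 of the 5 genes did not overlap (ARO9, ARO10 and PDC5), beside 32.7% of all genes. PDC5 differed by only 0.12, with a lowest thermal neutron array of 0.659 and a highest carbon ion array of 0.651. Between carbon ions and gamma rays ARO9 differed by 1.34 and ARO10 by 0.51. Only ARO9 among the 5 did not overlap there, beside 39.1% of all genes. A dye effect that is the same on every array cancels in these differences.

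**Figure D2:**
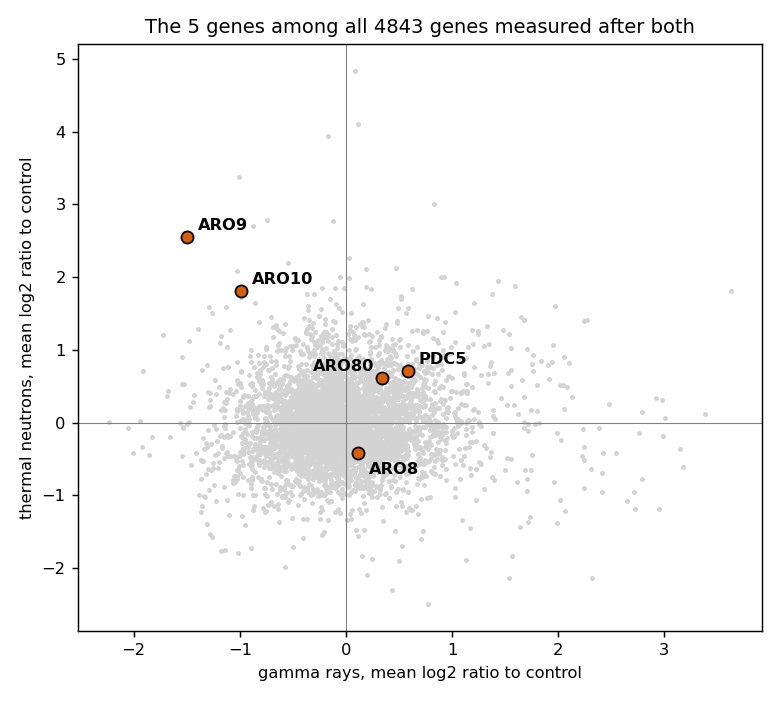
Mean log2 ratio after thermal neutrons (vertical axis) against that after gamma rays (horizontal axis) for the 4843 genes with a value on all 6 arrays (grey), with the 5 genes in orange. ARO9 (2.55 and -1.50) and ARO10 (1.81 and -0.99) stand apart at the upper left, and ARO8, PDC5 and ARO80 lie within the cloud.

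Genes high above control after thermal neutrons and low after gamma rays were counted over the table. Of the 4843 genes measured after both, 211 were at least 2-fold higher after thermal neutrons, and 67 of these (31.8%) were below control on all 3 gamma ray arrays, beside 35.3% of all 4843. At least 2-fold lower after gamma rays were 13 of the 211 (6.16%), ARO9 among them, beside 3.01% of all 4843. The difference between these shares was not tested. ARO10, with a gamma ray mean of -0.99, fell just outside the 2-fold limit. The limits were set after the values had been seen. Among the other genes that met them were BTN2 (3.38 after thermal neutrons and -1.01 after gamma rays), SIS1 (2.08 and -1.02), HSP82 (1.58 and -1.29) and MET6 (1.27 and -1.09). Btn2 sorts misfolded proteins, Sis1 is a cytosolic Hsp40 cochaperone, Hsp82 is the heat-inducible Hsp90 and Met6 is methionine synthase.

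The high-power and low-power scans of 1 array could be set against each other on 9 arrays. For ARO9 the gap between scans had a median of 0.18 and a maximum of 0.34, against differences of 4.05 and 2.71 between thermal neutrons and gamma rays or carbon ions. For ARO10 the median gap was 0.27 and the maximum 0.66, on carbon ion replicate 3, where the scans read -0.51 and -1.17. These gaps of ARO10 were the widest of the 5 genes, and the maximum was larger than its carbon ion mean (-0.48). For ARO80 the maximum was 0.64 over 6 arrays, on fast neutron replicate 2, where the scans read 0.58 and -0.06. That gap is larger than any mean log2 ratio of ARO80 in the study. For ARO8 and PDC5 the gap reached 0.22 and 0.31.

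**Figure D3:**
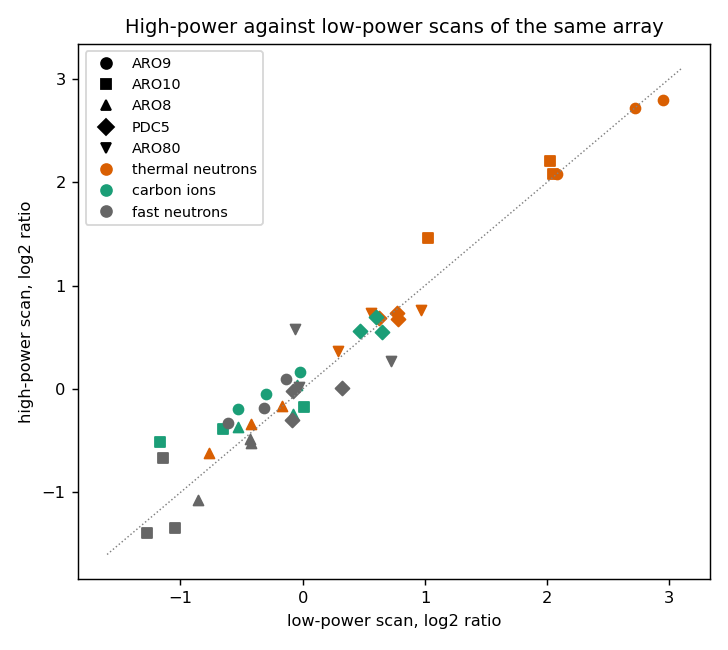
Log2 ratio from the high-power scan (vertical axis) against that from the low-power scan (horizontal axis) of the same array for the 5 genes on the thermal neutron, carbon ion and fast neutron arrays; the dotted line marks equality, and gamma ray arrays had 1 scan. The ARO9 points lie within 0.34 of the line, and the widest gaps are those of ARO10 (0.66) and ARO80 (0.64).

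The genes most like ARO9 were found by Pearson correlation of log2 ratios over the 9 arrays of the first table, among 4702 other genes with a value on each. The 9 arrays form 3 groups of 3, so r mostly follows the order of the 3 radiations and is a description only. The middle of all genes lay at r = 0.08, and the highest 5% began at 0.90. The 8 nearest genes had r between 0.98 and 0.99 and were MET17, GCV1, SIS1, PHM8, HSP42, AIM9, KAR2 and HSP104. MET17, homocysteine synthase, had means of 2.71, 0.07 and -0.87 after thermal neutrons, carbon ions and gamma rays, and SIS1 had 2.08, -0.03 and -1.02. KAR2, the Hsp70 of the endoplasmic reticulum, had the lowest gamma ray mean of the 8 (-1.31) and reached 0.79 after thermal neutrons. HSP104, the disaggregase, and HSP42, a small heat shock protein, followed the order at higher values, with thermal neutron means of 3.94 and 4.11 and gamma ray means of -0.17 and 0.11. ARO10 came at rank 24 for ARO9, with r = 0.97 and Spearman's rho = 0.92. On the fast neutron arrays, left out of this ranking, ARO9 had a mean of -0.25. Of its 8 nearest genes, MET17, AIM9, PHM8 and HSP42 were there at 0.63, 0.45, 0.39 and 0.31. HSP104, SIS1, GCV1 and KAR2 were at -0.003, -0.13, -0.15 and -0.60.

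For ARO10 the 8 nearest genes were BTN2, MDJ1, CUB1, SSA4, HSP104, HSP42, ARO9 and RPT5, with r between 0.97 and 0.99. SSA4, a heat-induced Hsp70, was at 4.84 after thermal neutrons, and MDJ1, a mitochondrial Hsp40, at 1.77. Among the other members ARO9 correlated with PDC5 at r = 0.58, with ARO80 at 0.43 and with ARO8 at -0.67 (n = 9 arrays, 3 per radiation). After fast neutrons, which the ranking did not use, ARO10 was at -1.14. Of its 8 nearest genes, SSA4, BTN2, ARO9, CUB1 and HSP104 were at -0.68, -0.58, -0.25, -0.12 and -0.003. MDJ1, HSP42 and RPT5 were at 0.26, 0.31 and 0.44.

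**Figure D4:**
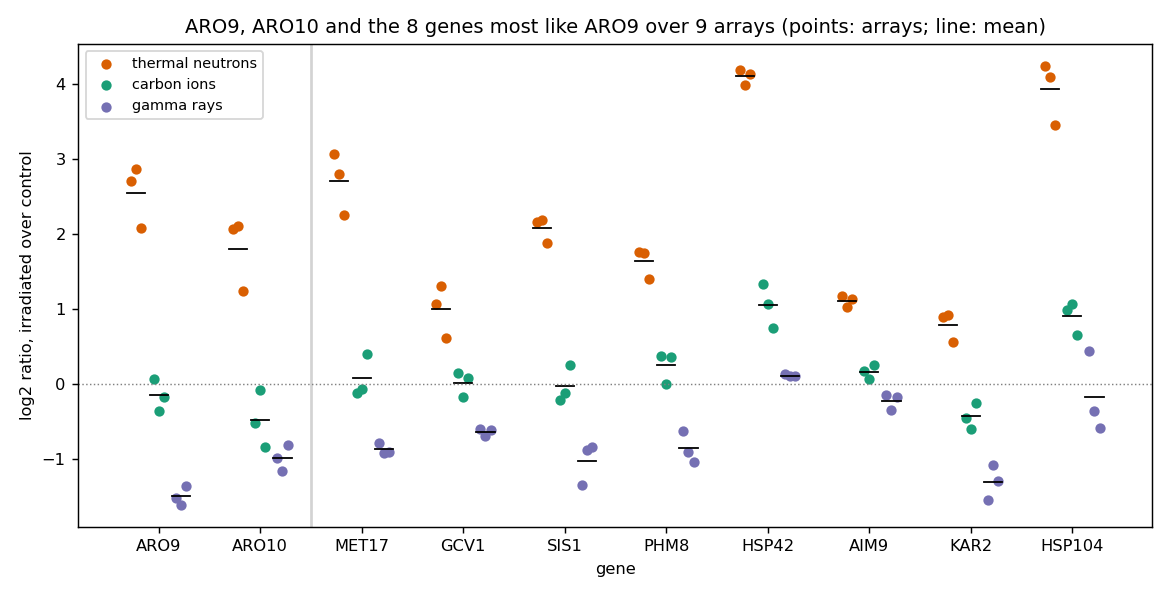
Log2 ratio of irradiated over control (vertical axis) on each array for ARO9, ARO10 and, right of the line, the 8 genes with the highest Pearson r to ARO9 (horizontal axis); colours mark the radiation and short lines the mean of 3 arrays. In each gene the thermal neutron arrays lie highest, with means from 0.79 (KAR2) to 4.11 (HSP42).

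Genes outside the 5 were tested with limma against control, with p-values adjusted over all genes of the table (Benjamini-Hochberg, threshold 0.05). In all, 41.1% of genes passed after thermal neutrons, 21.6% after carbon ions, 40.0% after gamma rays and 11.0% after fast neutrons. Genes of the remaining Ehrlich steps act on branched-chain amino acids, on keto acids, on aldehydes or on fusel alcohols. They rose in 4 and fell in 5 of 20 after thermal neutrons, and 11 did not pass. All genes of the table rose in 19.9% and fell in 21.2%. BAT2, the cytosolic branched-chain aminotransferase, was at 1.15, 1.22 and 1.23 after thermal neutrons, all 3 arrays above 2-fold, and rose 2.30-fold (1.20 ± 0.04, adjusted p = 5.9e-05). GRE2, a stress-induced reductase of aldehydes, was at 1.55, 1.33 and 1.07, likewise all above 2-fold, and rose 2.49-fold (1.32 ± 0.24, adjusted p = 2.7e-05). PDC6, the third pyruvate decarboxylase, rose to 0.66 ± 0.10 (adjusted p = 0.008), a call lost without thermal neutron replicate 1 (adjusted p = 0.054). ALD3 rose to 0.49 ± 0.42 (limma adjusted p = 0.046). This call was lost without thermal neutron replicate 1 or 2 (adjusted p = 0.21 and 0.26).

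Lower after thermal neutrons were ALD5, a mitochondrial aldehyde dehydrogenase, at -1.06, -1.43 and -1.18 (2.34-fold lower, mean -1.23 ± 0.19, adjusted p = 5.7e-05), and ATF2, an acetyltransferase of alcohols, at -1.39, -1.18 and -1.24 (2.41-fold lower, mean -1.27 ± 0.11, adjusted p = 1.8e-05). Both were below control by more than 2-fold on each of those arrays. ATF1 fell less, to -0.38 ± 0.11 (limma adjusted p = 0.025). Its call was lost without thermal neutron replicate 1, 2 or 3 (adjusted p = 0.14, 0.086 and 0.051). The alcohol dehydrogenase genes ADH4 and ADH5 fell to -0.91 ± 0.25 and -0.60 ± 0.24 (adjusted p = 2.9e-04 and 0.0065), and the ADH5 call was lost without thermal neutron replicate 2 (adjusted p = 0.06). ADH1, the main fermentative alcohol dehydrogenase, was at -0.09 ± 0.18 and SFA1, a formaldehyde dehydrogenase that also reduces long-chain aldehydes, at 0.39 ± 0.43, and neither passed (adjusted p = 0.57 and 0.069).

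After gamma rays 7 of these 20 genes rose and 4 fell, beside 17.6% and 22.4% of all genes. The highest was ALD4, the main mitochondrial acetaldehyde dehydrogenase, at 1.99, 2.09 and 1.97 (4.05-fold, mean 2.02 ± 0.07, adjusted p = 2.8e-04). ALD3, a cytosolic aldehyde dehydrogenase induced by stress, rose to 1.19 ± 0.25 and ALD2 to 0.97 ± 0.27, and since the ALD2 and ALD3 genes are near copies their probes may share transcript. PDC6 rose to 1.27 ± 0.25 (adjusted p = 2.0e-04). ATF2 fell to -1.10 ± 0.12 and GRE2 to -0.69 ± 0.20. BAT2, at -0.09 ± 0.07, did not pass (adjusted p = 0.63). The ADH5 rise was lost without gamma ray replicate 1 or 2 (limma adjusted p = 0.076 and 0.052). The ALD6 rise was lost without replicate 2 or 3 (0.1 and 0.14). Among the falls, ADH1 was lost without gamma ray replicate 1 or 2 (0.083 and 0.076) and BAT1 without replicate 2 or 3 (0.073 and 0.073). After carbon ions 5 rose (BAT2, PDC6, ALD2, ALD3 and ALD4) and 1 fell, beside 9.70% and 11.9% of all genes. None of the 5 rises passed without carbon ion replicate 1 (adjusted p = 0.15 for BAT2, 0.11 for PDC6, 0.23 for ALD2, 0.12 for ALD3 and 0.11 for ALD4) or with carbon ions fitted alone. Without replicate 2, PDC6, ALD2 and ALD4 were lost (0.22, 0.12 and 0.18), and without replicate 3, BAT2, ALD2 and ALD3 (0.2, 0.074 and 0.13). BAT1, the mitochondrial branched-chain aminotransferase, was the one that fell (-0.48 ± 0.18, adjusted p = 0.035), though not without carbon ion replicate 1 or 2 (adjusted p = 0.13 and 0.18). After fast neutrons 0 of 19 rose by limma and 2 fell, beside 5.06% and 5.92% of all genes, and at an unadjusted p under 0.05 there were 2 higher and 5 lower. The genes that fell were BAT1 (-0.62 ± 0.11, adjusted p = 0.041) and ALD5 (-0.74 ± 0.12, adjusted p = 0.027). Without fast neutron replicate 1 or 3 neither passed (adjusted p = 0.18 and 0.16 for BAT1, 0.14 and 0.081 for ALD5). Medians of the list were 0.12, 0.12, 0.22 and -0.18 after thermal neutrons, carbon ions, gamma rays and fast neutrons, beside -0.04, -0.04, -0.06 and 0.003 for all genes tested.

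Of 8 permeases listed for aromatic amino acid uptake, 5 fell after thermal neutrons and 0 rose by limma, beside 21.2% and 19.9% of all genes. The list is wider than aromatic uptake, since it also holds GNP1, the glutamine permease. Its median was -0.74. At an unadjusted p under 0.05, 6 of the permeases were lower and 0 higher. AGP1, a broad amino acid permease, was at -2.23, -1.94 and -1.50, all far below control, and fell 3.70-fold (-1.89 ± 0.37, adjusted p = 1.6e-05). BAP3, a permease of branched-chain and aromatic amino acids, fell 2.88-fold (-1.52 ± 0.15, adjusted p = 4.7e-05) and GNP1, the glutamine permease, 2.31-fold (-1.21 ± 0.46, adjusted p = 2.9e-04). TAT1 and TAT2, the permeases for tyrosine and tryptophan, fell to -0.75 ± 0.16 and -0.67 ± 0.08 (adjusted p = 0.0014 and 0.0021). GAP1, the general permease controlled by nitrogen, was at -0.11 ± 0.27 and BAP2 at -0.19 ± 0.22, and neither passed (adjusted p = 0.64 and 0.37).

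After fast neutrons 3 of the 8 permeases fell and 0 rose by limma, beside 5.92% and 5.06% of all genes. The list had a median of -0.30, and at an unadjusted p under 0.05, 4 of its genes were lower and 0 higher. AGP1 was at -1.71, -1.35 and -1.69 (3.00-fold lower, mean -1.59 ± 0.20, adjusted p = 0.0046), close together and far below control. AGP1 missed the threshold with trend and robust eBayes (adjusted p = 0.055). BAP3 fell to -0.96 ± 0.22 and GNP1 to -1.12 ± 0.14 (adjusted p = 0.018 and 0.012). The BAP3 call was lost without fast neutron replicate 1 or 3 (adjusted p = 0.083 and 0.067) and the GNP1 call without replicate 1 (adjusted p = 0.054). The same 3 permeases were among the 5 that fell after thermal neutrons, which is a count and was not tested as an overlap. After gamma rays 3 rose and 1 fell: AGP1 was at 1.03, 1.06 and 1.32 (2.20-fold, mean 1.13 ± 0.16, adjusted p = 4.8e-04), GAP1 rose to 0.82 ± 0.22 (adjusted p = 0.0038), AGP3, another amino acid permease, to 0.89 ± 0.97 (adjusted p = 0.03), and BAP3 fell to -1.28 ± 0.49 (adjusted p = 1.9e-04). Of all genes 17.6% rose and 22.4% fell after gamma rays, and the list median was 0.26. AGP3 was above control on 2 of the 3 gamma ray arrays (-0.22, 1.32 and 1.57), and its call was lost without gamma ray replicate 2 or 3 (adjusted p = 0.17 and 0.22). After carbon ions GNP1 alone of 7 measured passed, with a fall (-0.81 ± 0.31, adjusted p = 0.0083), and 0 rose by limma. Of all genes 11.9% fell and 9.70% rose. At an unadjusted p under 0.05, 1 permease was higher and 2 were lower. The GNP1 call was lost without carbon ion replicate 2 (adjusted p = 0.072).

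**Figure D5:**
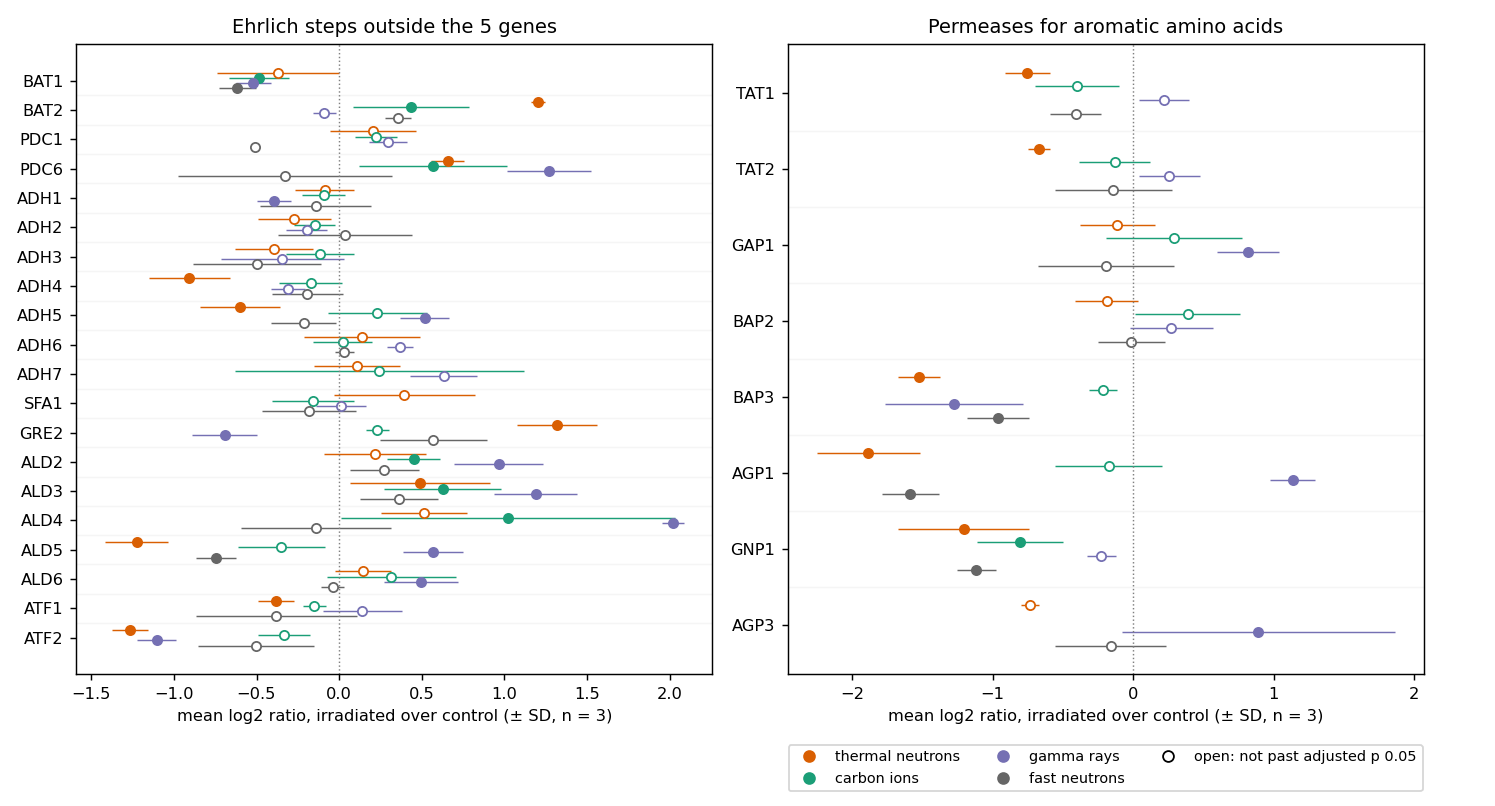
Mean log2 ratio ± SD over 3 arrays (horizontal axis), one gene per line and one colour per radiation. The left side holds the measured Ehrlich genes outside the 5. The right side holds the permeases listed for aromatic amino acid uptake, GNP1 included. Filled points passed limma at an adjusted p under 0.05. AGP1 lies at -1.89 after thermal neutrons, at -1.59 after fast neutrons and at 1.13 after gamma rays, and BAT2 and GRE2 are the 2 genes on the left above 1 after thermal neutrons.

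Genes that build aromatic amino acids fell in 3 of 11 after thermal neutrons and 0 rose by limma. Of all genes 21.2% fell and 19.9% rose. The counts of the list were the same at an unadjusted p under 0.05. TRP4, of tryptophan synthesis, was the lowest (-0.85 ± 0.24, adjusted p = 9.2e-04). ARO4, the tyrosine-inhibited enzyme of the first common step, fell to -0.57 ± 0.26 (adjusted p = 0.0065). This call was lost without thermal neutron replicate 3 (adjusted p = 0.057). TRP1 fell to -0.37 ± 0.15 (limma adjusted p = 0.021), a call lost without thermal neutron replicate 1 or 3 (0.12 and 0.087). After gamma rays 2 rose and 3 fell, beside 17.6% and 22.4% of all genes. ARO4 was at 0.75, 0.84 and 0.61 (1.66-fold, mean 0.74 ± 0.11, adjusted p = 0.0017), and ARO3, its phenylalanine-inhibited counterpart, rose to 0.49 ± 0.11 (adjusted p = 0.0093, and 0.055 without gamma ray replicate 3). TYR1, of tyrosine synthesis, fell to -0.63 ± 0.21 and TRP3, of tryptophan synthesis, to -0.66 ± 0.12 (adjusted p = 0.0031 and 0.011). The TRP3 call was lost without gamma ray replicate 2 (adjusted p = 0.066). ARO7 fell to -0.41 ± 0.20 (limma adjusted p = 0.027), a call lost without gamma ray replicate 2 or 3 (0.18 and 0.083). After carbon ions 3 of 11 fell and 0 rose by limma, beside 11.9% and 9.70% of all genes. At an unadjusted p under 0.05, 4 of the list were lower and 0 higher. TRP3 was among those that fell, at -0.93 ± 0.48 (adjusted p = 0.0043). ARO2, chorismate synthase, and TYR1 were the others that fell, and both were lost without any one of the 3 carbon ion arrays (adjusted p = 0.063 to 0.13 for ARO2 and 0.051 to 0.17 for TYR1). After fast neutrons 1 fell and 0 rose by limma, beside 5.92% and 5.06% of all genes. At an unadjusted p under 0.05, 3 of the list were lower and 1 higher. The gene that fell, TRP5 of tryptophan synthesis (-0.71 ± 0.23, adjusted p = 0.036), did not pass without fast neutron replicate 1 or 3 (adjusted p = 0.23 and 0.11). The list medians lay between -0.21 and -0.18 in all 4 radiations.

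The list of regulators of nitrogen use and of thiamine-dependent decarboxylases, which also holds the transporter-like ESBP6, was incompletely measured, with 5 to 7 of 9 having a value on all 3 arrays. After thermal neutrons 1 of 7 measured genes rose (GLN3) and 1 fell, beside 19.9% and 21.2% of all genes. After carbon ions 1 of 7 rose (ESBP6) and 1 fell, beside 9.70% and 11.9%. After gamma rays 2 of 5 rose (GLN3 and ESBP6) and 2 fell, beside 17.6% and 22.4%. After fast neutrons 0 of the list passed limma, beside 11.0% of all genes. At an unadjusted p under 0.05, 1 list gene was higher and 0 lower. GLN3, a GATA activator of genes for poor nitrogen sources, rose to 0.55 ± 0.40 after thermal neutrons (adjusted p = 0.019), but not without thermal neutron replicate 3 (adjusted p = 0.17), and to 0.74 ± 0.22 after gamma rays (adjusted p = 0.0039). GAT1, the other GATA activator, was at 0.47 ± 0.11 after thermal neutrons and did not pass (adjusted p = 0.12). PDC2, an activator of the pyruvate decarboxylase genes, fell to -0.58 ± 0.26 after thermal neutrons, -0.52 ± 0.32 after carbon ions and -0.49 ± 0.25 after gamma rays (adjusted p = 0.012, 0.036 and 0.026). PDC5 was above control on all 9 of those arrays. The PDC2 calls were lost without thermal neutron replicate 1 or 3 (adjusted p = 0.055 and 0.093), carbon ion replicate 1 or 2 (0.13 and 0.23) and gamma ray replicate 1 or 2 (0.13 and 0.12). THI3 fell to -0.44 ± 0.22 after gamma rays (limma adjusted p = 0.02), a call lost without gamma ray replicate 2 or 3 (0.16 and 0.053). ESBP6, whose protein resembles monocarboxylate permeases, was at -0.35 ± 0.11 after thermal neutrons (adjusted p = 0.066). It rose to 0.49 ± 0.31 after carbon ions (adjusted p = 0.033), a call lost without carbon ion replicate 1 or 2 (adjusted p = 0.081 and 0.24), and rose 2.17-fold after gamma rays (1.12 ± 0.25, adjusted p = 2.0e-04).

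Differences between radiations were tested for the genes outside the 5 as contrasts in the fit of 9 arrays. Of 44 genes measured after both, 3 were higher and 17 lower after thermal neutrons than after gamma rays. These were 20 in all, beside 38.2% of all genes called in either direction. For these contrasts the shares of all genes higher and lower were not counted apart. GRE2 was higher by 2.01 (1.32 after thermal neutrons and -0.69 after gamma rays, adjusted p = 1.9e-05) and BAT2 by 1.29 (1.20 and -0.09, adjusted p = 4.2e-04), in the direction of ARO9 and ARO10. In the opposite direction AGP1 differed by -3.02 (-1.89 and 1.13, adjusted p = 9.6e-06), ALD5 by -1.79 (-1.23 and 0.57, adjusted p = 5.7e-05), ESBP6 by -1.47 (adjusted p = 2.9e-04), ARO4 by -1.31 (-0.57 and 0.74, adjusted p = 4.4e-04) and ADH5 by -1.12 (-0.60 and 0.52, adjusted p = 0.0014). Against control, the ADH5 rise after gamma rays (adjusted p = 0.013) was lost without gamma ray replicate 1 or 2 (adjusted p = 0.076 and 0.052). Of the permeases 6 of 8 were lower after thermal neutrons, beside the 38.2% of all genes called in either direction. TAT1, TAT2 and GAP1 were included, and the differences ran from -3.02 to -0.93. BAP3, which fell after both, was not among them (adjusted p = 0.41).

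Against carbon ions, 2 of 45 genes were higher after thermal neutrons and 7 lower, beside 10.2% of all genes called in either direction. GRE2 was higher by 1.08 (adjusted p = 0.0044), and AGP1 and BAP3 were lower, with differences of -1.71 and -1.31 (adjusted p = 0.0018 and 0.0061). The difference for BAT2 was 0.77 (adjusted p = 0.027). The BAT2 call was lost without thermal neutron replicate 1, 2 or 3 (adjusted p = 0.082, 0.094 and 0.06) and without carbon ion replicate 1 or 2 (0.074 and 0.095). Between carbon ions and gamma rays 10 of 43 genes differed, 3 higher and 7 lower after carbon ions. Beside these, 20.8% of all genes were called in either direction.

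The genes on either side of the members on the chromosome, in the order of the RefSeq annotation of S288C (R64), were looked at after the members' values had been seen. ARO9 lies between SPL2 (YHR136C), an inhibitor of low-affinity phosphate transport, and YHR138C, a gene of little-known function. SPL2 was at 1.77, 1.86 and 1.87 after thermal neutrons (1.83 ± 0.06, limma adjusted p = 3.5e-06) and YHR138C at 1.51, 1.69 and 2.10 (1.77 ± 0.30, limma adjusted p = 2.8e-05), so both neighbours were high together with ARO9 on all 3 arrays. On the gamma ray arrays they were not low as ARO9 was: SPL2 rose to 0.62 ± 0.29 (adjusted p = 0.003) and YHR138C was at -0.37 ± 0.30 (adjusted p = 0.11). After carbon ions YHR138C rose to 1.29 ± 0.39 (adjusted p = 7.3e-04), where ARO9 was near control. After fast neutrons SPL2 and YHR138C both rose to 0.93 (SD 0.24 and 0.32, adjusted p = 0.02 and 0.023). The SPL2 call there was lost without fast neutron replicate 1 or 3 (adjusted p = 0.075 and 0.051) and the YHR138C call without replicate 1 (adjusted p = 0.11). Both were also lost with high-power scans only (adjusted p = 0.073 for SPL2 and 0.074 for YHR138C) and with trend and robust eBayes (0.061 and 0.063). Of the other measured neighbours after thermal neutrons, CKI1 beside PDC5 rose to 0.82 ± 0.32 (adjusted p = 8.3e-04), while YRA1 beside ARO10 (0.24 ± 0.40), SIP1 beside ARO80 (-0.26 ± 0.12), KEX1 and MCM6 beside ARO8 (0.06 ± 0.10 and 0.07 ± 0.29) and SLX4 beside PDC5 (0.12 ± 0.13) did not pass.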

How the data were processed

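Per the labels, the authors normalised each array by LOWESS on spots with flag value 0, and the deposited values are log2 ratios of its channels. The log base is not stated. It was taken from the values, since 4 of 21 columns bottom out at log2 of 0.01. Direction follows the dyes in the labels (Cy5 irradiated, Cy3 control). Scanner files and the merged scans that the labels credit to GeneSpring were not used here. Columns held 4496 to 6133 values of 6912 probes. One gene symbol was given for 5446 probes of the first table and 5513 of the second, and none for the others. High-power and low-power scans were averaged per probe, and then probes sharing a gene, giving 1 value per array. Genes with a value on all 3 arrays of a radiation were tested two-sided against 0 by lmFit and eBayes of limma 3.58.1 in R 4.3.3. The 9 arrays of the first table entered 1 fit and the fast neutron arrays another. The procedure was tested on simulated data with independent noise and the gene spreads of the first table. Shifts shared by a whole array and the spread of the fast neutron arrays were thus not simulated. The design text says that biological samples were collected independently. The number of arrays limits the precision. The 5 genes and the 4 lists (50 genes, of which PDR12, ARO1 and URE2 matched no probe) were chosen with earlier results of these data known. Named genes are the 5, any measured list gene, and the 8 genes most like ARO9 and the 8 most like ARO10. Neighbours, and genes high after thermal neutrons but low after gamma rays, were added after values were seen. Alternatives changed the centring, scans, scaling, array weights, empirical Bayes, arrays fitted, genes kept, replicates and the replicate block. Sequences were not used here.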

Additional observations from a re-analysis of the deposited data

Results flagged for a closer look

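Opposite directions on all arrays of 2 radiations drew attention to ARO9 and ARO10, and these differences were not tested, since both genes were chosen on these ratios. The mean of ARO9 differed by 4.05 between thermal neutrons and gamma rays (2.55 and -1.50), and it was at -0.25 after fast neutrons. The mean of ARO10 differed by 2.79 between thermal neutrons and gamma rays (1.81 and -0.99) and by 2.29 between thermal neutrons and carbon ions (1.81 and -0.48). After fast neutrons ARO10 was at -1.14. Among the 44 list genes measured after both thermal neutrons and gamma rays, 5 rose after one and fell after the other. Their limma difference passed as well. That difference alone passed for 38.2% of all genes, and the share of all genes that met the whole rule was not counted. For thermal neutrons minus gamma rays the difference was 2.01 for GRE2, -3.02 for AGP1, -1.79 for ALD5, -1.31 for ARO4 and -1.12 for ADH5. Against control, the ADH5 rise after gamma rays was lost without gamma ray replicate 1 or 2 (limma adjusted p = 0.076 and 0.052), its fall after thermal neutrons without thermal neutron replicate 2 (0.06), and the ARO4 fall after thermal neutrons without thermal neutron replicate 3 (0.057).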

How the results depend on the processing

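All 123 recomputed means of the 5 genes stayed within 1 SD of the values given. Leaving out 1 of 3 arrays cannot move a mean by 1 SD, so the means recomputed that way could not fail this limit. Leaving out each array in turn, ARO9 ranged from 2.40 to 2.79 after thermal neutrons, -0.27 to -0.05 after carbon ions, -1.57 to -1.44 after gamma rays and -0.36 to -0.14 after fast neutrons. ARO10 ranged from 1.65 to 2.09, -0.68 to -0.30, -1.07 to -0.90 and -1.26 to -1.05 in the same order. No call of a list gene reversed its sign. Of 61 calls of list genes against control, 25 held under every alternative run, and of 39 called differences 24 did.

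Counts of calls depended on the setting, and the cause was not tested. For carbon ions 1102 genes passed, against 1672 with arrays scaled to the same spread, 1682 with array weights, 404 with each radiation fitted alone and 355 to 1053 without each replicate in turn (398 without replicate 1, 355 without replicate 2). List genes called numbered 12, against 1 when fitted alone and 2 to 10 without each replicate (2 without replicate 1, 3 without replicate 2). For fast neutrons 542 genes passed, against 38 with high-power scans only, 1303 with low-power scans only, 937 scaled, 1247 with array weights, 9 with trend and robust eBayes and 68 to 1637 without each replicate (68, 1637 and 89 without replicates 1, 2 and 3). List genes there numbered 6, against 1, 13, 10, 13 and 0 in that order and 1 to 20 without each replicate (1, 20 and 2 likewise). With trend and robust eBayes in limma, where 0 list genes passed, 5 were higher and 12 lower at an unadjusted p under 0.05. After gamma rays 1957 genes passed, against 1249 to 1651 without each replicate (1249 without replicate 3), and after thermal neutrons 2180, against 1444 to 1491 (1444 without replicate 3). List genes after thermal neutrons numbered 19, against 30 with array weights and 15 to 16 without each replicate. For thermal neutrons minus carbon ions 9 list genes differed, against 17 with array weights and 4 to 11 without each replicate (5 without carbon ion replicate 1 or 2, 4 without thermal neutron replicate 2), and for carbon ions minus gamma rays 10, against 6 to 12 (6 without gamma ray replicate 2 or 3, or carbon ion replicate 1 or 3). With the replicate number as a block (replicate block), list genes called were 18, 10 and 25 after thermal neutrons, carbon ions and gamma rays, and 19, 8 and 7 for the differences thermal neutrons minus gamma rays, thermal neutrons minus carbon ions and carbon ions minus gamma rays. Same-numbered arrays share only a number: their residuals correlated with r from -0.26 to 0.13 in 9 pairs.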
